A study of Homo sapiens and Mus musculus with 19 samples.

Results

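A set of 8 genes of plasminogen activation and of the tissue factor pathway were described in lung cancer cells carrying vectors that act on NF-kB. These were PLAU, PLAUR, PLAT, SERPINB2, F3, TFPI, TFPI2 and SLPI. They were chosen by symbol, from probe sets annotated to that gene alone, with the brightest probe set standing for the gene. On the human arrays 7 of the 8 were named, by 15 probe sets, among 19775 named genes, and all 7 passed the filter on low signals. No probe set used here carried the name SERPINB2 in human cells, so that gene was not analysed there. The mouse arrays named all 8 counterparts, by 13 probe sets, among 18194 genes, and 7 of them passed the filter.

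The study used 19 Affymetrix arrays of retrovirally transduced lines, each sorted for the GFP that the vector carries. Every human line (A549, H23, H358, HCC827 and PC9, established non-small cell lung cancer lines) was hybridised once with each of 3 vectors. MiG was the empty control virus. IkB_SR carried IkB alpha with its regulatory serines changed to alanine, the form called a super-repressor of NF-kB, and IKKb carried an activated IKK beta with its activation-loop serines changed to glutamate. Mouse Lewis lung carcinoma cells, listed as LLC-kB OVA and called LLC here, were hybridised on 2 arrays with MiG and on 2 with IKKb. All groups share the retroviral backbone, GFP and growth in serum. What kB OVA stands for, in the names of all LLC arrays, is not stated. Nor do the labels say whether the arrays of one vector came from separate cultures. The p-values therefore measure the spread between these arrays, which may be technical in LLC.

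Urokinase (PLAU) and tissue plasminogen activator (PLAT) cut plasminogen to plasmin, the protease that dissolves fibrin and opens the matrix around cells. Urokinase works at the cell surface, bound to its receptor PLAUR, and is held in check by serpins such as SERPINB2. Tissue factor (F3) is the membrane receptor for factor VII that starts coagulation; TFPI blocks that step, TFPI2 is a related Kunitz inhibitor whose best-known target is plasmin, and SLPI is a secreted inhibitor of neutrophil elastase made by airway epithelium. Lung carcinomas are known to make many of these proteins, and several of their genes are described as NF-kB or AP-1 targets in other cells.

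Values are MAS5 signals on a linear scale, which the authors scaled to a common trimmed mean of 500 per array. Array medians ran from 51.3 to 76.5 in human and from 55.0 to 64.4 in LLC. A signal above the 40th percentile of its own array was taken as above background. Differences were taken on log2 of the signal plus 16 and tested with limma. Folds are these differences taken off the log2 scale, so they can differ from the ratio of the printed signals. KRT8, KRT18, EPCAM and CDH1, which mark epithelial cells, lay above that percentile on all 15 human arrays, KRT19 on 12 and CLDN4 on 11. Of the leukocyte genes, PTPRC lay above it on 1 (at most 37.3) and LYZ on 1 (at most 39.95), CD3E on 7 (up to 145) and CD14 on 10 (up to 227). In LLC, Krt8 and Krt18 lay above it on all 4 arrays and the epithelial cadherin Cdh1 on none. The NF-kB target TNFAIP3, a check of the vectors, was higher with IKKb than with IkB_SR in every human line, by 2.18 (A549), 2.04 (H23), 4.37 (H358), 5.08 (HCC827) and 3.27 (PC9) on the log2 scale. NFKBIA, the target gene that encodes IkB alpha and so is the gene the IkB_SR vector carries, gave -0.47, 0.45, -0.059, -1.08 and -2.36 in the same order; whether its probe set reads the vector's copy is not known here. Against MiG, TNFAIP3 was lower with IkB_SR in every human line. In H358 it read 130 with IkB_SR and 285 with MiG, and the target TNFAIP2 read 3953 and 4845. Other targets were not clearly lower with IkB_SR there: RELB read 64.7 and 70.9, ICAM1 520 and 453, and NFKB2 85.3 and 66.5. One array stood apart: H358 with IKKb had a Dap spike-in signal of 4376 against 1128 with MiG and 1103 with IkB_SR. Its 3' to 5' actin ratio was 1.74 against 1.41 and 1.38. Member differences and correlations printed here that moved by over 1.5 times without it are given with and without it.

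Most of the variance of these genes lay between cell lines and little of it between vectors. Between the 5 lines all 7 human members passed the limma F test (adjusted p from 2.60e-14 for TFPI to 0.000375 for TFPI2). This is near the background, since 86.7% of the 15212 genes past the low-signal filter did so. The share of the variance of log2 signal that lay between lines was 99.6% for TFPI, 98.4% for F3, 95.1% for PLAT, 93.7% for PLAU, 92.8% for SLPI, 82.7% for PLAUR and 70.5% for TFPI2. The share between vectors was 10.4% for PLAUR, 8.02% for TFPI2, 3.25% for SLPI, 2.48% for PLAU and below 0.2% for PLAT, F3 and TFPI. In bulk RNA, fewer expressing cells and less RNA per cell cannot be told apart.

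**Figure D1:**
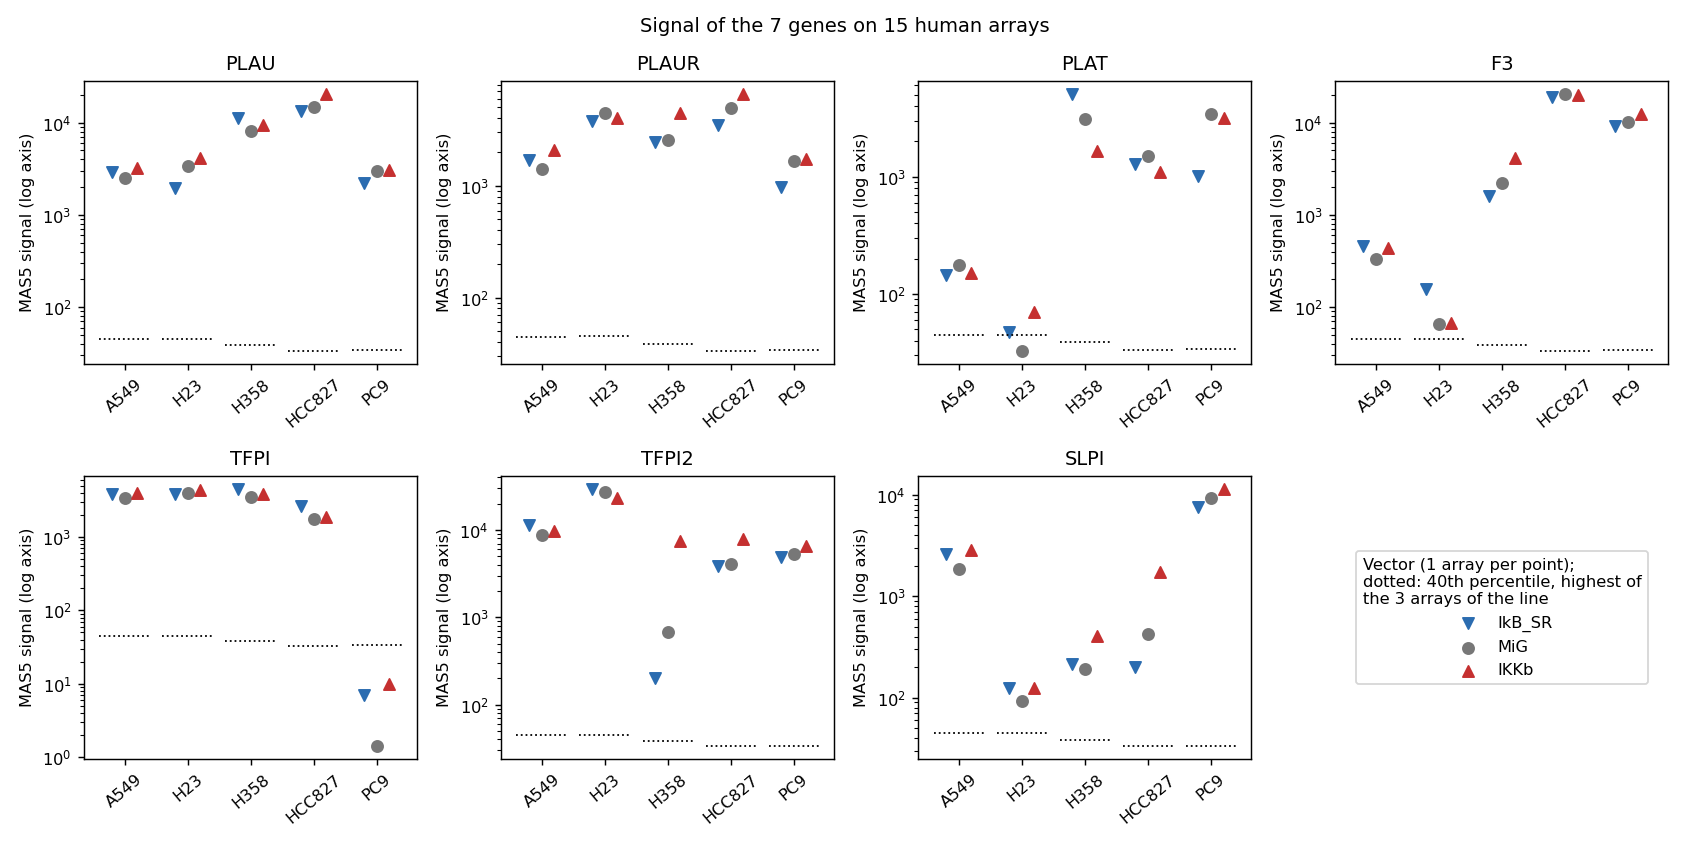
MAS5 signal (log axis) of the 7 human members in each line, with 1 point per array; triangles pointing down are IkB_SR, circles MiG, triangles pointing up IKKb, and dotted lines the highest 40th percentile among the 3 arrays of a line. F3 spans 65.5 to 20532 between lines, TFPI lies below the dotted line in PC9 only, and among signals above background TFPI2 in H358 and SLPI in HCC827 are the most spread between vectors within a line.

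No member passed the threshold, a limma adjusted p of 0.05, in any of the 3 comparisons of vectors over the 5 human lines. Over all genes tested, 0% passed between IKKb and MiG, 0% between IkB_SR and MiG and 0.933% (142 of 15212; 0.611% higher and 0.322% lower) between IKKb and IkB_SR. At an unadjusted p below 0.05 the members numbered 3 of 7 between IKKb and MiG, where the background was 5.52% (839 genes). They numbered 1 of 7 between IkB_SR and MiG, where it was 4.44% (675 genes), and 4 of 7 between IKKb and IkB_SR, where it was 14.2% (2160 genes). The median difference of the members was 0.31 between IKKb and MiG against -0.014 for all genes. It was -0.13 against -0.00076 between IkB_SR and MiG, and 0.41 against -0.014 between IKKb and IkB_SR. The 3 comparisons reuse the same arrays, so their values are set side by side and are not separate evidence. The members were also chosen with earlier results of these data known. An excess of their counts or medians over all genes is therefore no evidence about the set. TFPI, counted in both comparisons with MiG, was below background in PC9. The signals of a gene overlapped between the vectors for all 7 members in all 3 comparisons. Levels differed mostly between lines, so overlap across lines says little about the vectors, and its share over all genes was not computed.

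PLAUR, the urokinase receptor, was the member nearest to the threshold. With IkB_SR its signal was 1706 (A549), 3785 (H23), 2462 (H358), 3457 (HCC827) and 974 (PC9). With MiG, in the same order of lines, it was 1405, 4466, 2561, 4914 and 1658, and with IKKb it was 2089, 4065, 4479.5, 6614 and 1719. The IKKb array was the highest of its line in 4 of the 5 lines, the exception being H23, where MiG was higher. Between IKKb and IkB_SR the log2 difference was 0.60 ± 0.14 (SE; 95% interval 0.29 to 0.90), a 1.51-fold difference, with IKKb higher in 5 of 5 lines and a limma adjusted p of 0.0703. Over all genes 4.51% were higher in all 5 lines in that comparison. By line it was 0.29 (A549), 0.10 (H23), 0.86 (H358), 0.93 (HCC827) and 0.81 (PC9). Against MiG the difference was 0.34 ± 0.14 (0.038 to 0.65) with IKKb (limma adjusted p = 0.878, higher in 4 of 5 lines) and -0.26 ± 0.14 (-0.56 to 0.049) with IkB_SR (adjusted p = 0.995, lower in 4 of 5 lines). The first was 0.23 without H358, and the second -0.39 without A549 and -0.13 without PC9. Without the H358 IKKb array the IKKb to IkB_SR difference was 0.51, with an adjusted p of 0.148. The other 2 PLAUR probe sets gave like values between IKKb and IkB_SR, 0.61 ± 0.16 and 0.50 ± 0.13, each higher in 5 of 5 lines.

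The 250 bases before the PLAUR start site are shown because this gene was the nearest to the threshold. They lie at chr19:43670170-43670419 on the minus strand (RefSeq, GRCh38.p14) and are written 5′ to 3′, with the match to the AP-1 motif in capitals.
PLAUR: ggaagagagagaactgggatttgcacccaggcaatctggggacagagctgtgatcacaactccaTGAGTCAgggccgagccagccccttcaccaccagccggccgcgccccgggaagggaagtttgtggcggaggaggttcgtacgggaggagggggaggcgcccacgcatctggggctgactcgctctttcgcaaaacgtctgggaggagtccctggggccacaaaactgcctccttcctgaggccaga
The AP-1 motif searched was TGANTCA, a palindrome counted once over both strands, and the match runs from 186 to 180 bases before the start. Of 35116 promoter windows of this length, 6.57% hold this motif and 9.96% the NF-kB consensus, which was searched on both strands. No NF-kB consensus match was found in the PLAUR window, which says only that those letters are not there. Motif matches here are descriptions of sequence; binding was not measured.

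PLAU, which encodes urokinase, ranged from 1974 to 20546 over the 15 arrays. With IkB_SR its signal was 2904 (A549), 1974 (H23), 11256 (H358), 13525 (HCC827) and 2215 (PC9). The MiG arrays, in that order, read 2492, 3356, 8090.2, 14921 and 3013, and the IKKb arrays 3229, 4163, 9539, 20546 and 3083. PC9, A549 and H23 were the lowest lines and overlapped one another, while H358 and then HCC827 stood above them without overlap. IKKb was above MiG in all 5 lines, which 3.29% of all genes were, by 0.28 ± 0.15 on the log2 scale (95% interval -0.040 to 0.60; limma adjusted p = 0.887). The second PLAU probe set gave 0.17 there and was higher in 3 of 5 lines. Between IKKb and IkB_SR the difference was 0.41 ± 0.15 (0.090 to 0.73; adjusted p = 0.236). H23 gave the largest, 1.07, which is 1 of its 2 differences past 2-fold among the members, and H358 was the exception with -0.24. Without H23 the difference was 0.25. Between IkB_SR and MiG it was -0.13 ± 0.15 (-0.45 to 0.19; adjusted p = 0.995), with -0.76 in H23 and 0.48 in H358. That probe set gave 0.27 between IKKb and IkB_SR, again with H358 against the other lines, at -0.81. Both PLAU promoter windows in RefSeq held neither motif.

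PLAT, the other activator, had no common direction between IKKb and IkB_SR. With IkB_SR it read 144 (A549), 47.2 (H23), 5073 (H358), 1293 (HCC827) and 1017 (PC9). With MiG, by line in that order, it read 177, 32.5, 3114, 1495 and 3422, and with IKKb 152, 70.6, 1653, 1091 and 3183. The H23 MiG signal lay below the 40th percentile of its array, and A549 was low on all 3 arrays. H358 and PC9 had similar levels with MiG but ran in opposite directions. In H358 the IKKb array was lowest and the log2 difference to IkB_SR was -1.61. In PC9 the IkB_SR array was lowest, 3.33-fold below MiG, and the IKKb to IkB_SR difference was 1.63. Over the 5 lines the IKKb to IkB_SR difference was 0.061 ± 0.33 (95% interval -0.64 to 0.76; limma adjusted p = 0.958). Against MiG it was -0.17 ± 0.33 with IKKb (-0.87 to 0.54; adjusted p = 0.966) and -0.23 ± 0.33 with IkB_SR (-0.93 to 0.47; adjusted p = 0.995). The IKKb array was below MiG in 4 of 5 lines, the exception being H23, whose MiG signal was below the percentile. The first interval holds a difference of 1.5-fold in either direction, and the other 2 hold one towards lower levels only. Without the H358 IKKb array the difference between IKKb and MiG was 0.14, and between IKKb and IkB_SR 0.36. In PC9 the Dap spike-in was 4047 with IkB_SR and 4354 with IKKb against 2376 with MiG; its part in the PLAT values was not tested.

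F3, the gene of tissue factor, ordered the lines most cleanly. Its signal was 65.5 to 158 in H23, 335 to 458 in A549, 1588 to 4145 in H358, 9149.9 to 12511 in PC9 and 19169 to 20532 in HCC827. No line overlapped its neighbour in that order. Differences between vectors were small next to this. With IkB_SR the signal was 458 (A549), 158 (H23), 1588 (H358), 19169 (HCC827) and 9149.9 (PC9). On the MiG arrays it was 335, 65.5, 2226, 20532 and 10076.5, and on the IKKb arrays 434, 66.7, 4145, 19825 and 12511. H358 and H23 differed in direction. Between IKKb and IkB_SR the log2 difference was 1.375 in H358 and -1.07 in H23, where the IkB_SR array was 2.13-fold above MiG. It was -0.075 in A549, 0.049 in HCC827 and 0.45 in PC9. Over the lines it was 0.15 ± 0.23 (95% interval -0.35 to 0.64; limma adjusted p = 0.832), and -0.081 without the H358 IKKb array. Against MiG it was 0.31 ± 0.23 (-0.19 to 0.80; adjusted p = 0.919) with IKKb and 0.16 ± 0.23 (-0.33 to 0.65; adjusted p = 0.995) with IkB_SR. The difference between IKKb and MiG was 0.080 without the H358 IKKb array and 0.16 without H358.

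The F3 window is shown because it holds a pair of AP-1 matches, in capitals, at bases 223 to 217 and 210 to 204 before the start. It lies at chr1:94541760-94542009 on the minus strand (RefSeq, GRCh38.p14). No NF-kB consensus match was found in it, which says only that those letters are not there. A site that departs from the consensus would not be counted.
F3: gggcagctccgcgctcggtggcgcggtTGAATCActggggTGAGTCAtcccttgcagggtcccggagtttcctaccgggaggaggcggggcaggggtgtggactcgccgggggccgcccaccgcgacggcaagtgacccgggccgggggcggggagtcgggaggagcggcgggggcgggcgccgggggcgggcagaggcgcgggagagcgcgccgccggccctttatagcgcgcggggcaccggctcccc

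TFPI, the inhibitor of the tissue factor and factor VII complex, was below background in PC9 and well above it in the other 4 lines. In PC9 it read 7.07 with IkB_SR, 1.39 with MiG and 9.99 with IKKb, below the 40th percentile of all 3 arrays. Elsewhere it lay between 1769.7 (HCC827 with MiG) and 4514 (H358 with IkB_SR). The levels of the other lines were higher than that of PC9 by at least 76.8-fold (A549), 83.1-fold (H23), 80.5-fold (H358) and 42.7-fold (HCC827), computed with each PC9 array's 40th percentile standing in for TFPI there. In A549 the IkB_SR, MiG and IKKb arrays gave 3845, 3421 and 4012, and in H23 3849, 3967 and 4383. In H358 they gave 4514, 3494 and 3849, and in HCC827 2693, 1769.7 and 1879. A549, H23 and H358 overlapped one another, and HCC827 was below them.

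TFPI was above MiG with both vectors, which are built to act in opposite directions on NF-kB. The log2 difference was 0.30 ± 0.11 with IkB_SR (95% interval 0.071 to 0.53; limma adjusted p = 0.995; higher in 4 of 5 lines). It was 0.24 ± 0.11 with IKKb (0.0057 to 0.46; adjusted p = 0.878; 5 of 5 lines). One of the lines counted, PC9, was below background, so its sign carries no level; it gave the largest difference of the 5 lines between IKKb and MiG, 0.58. Without PC9 the difference from MiG was 0.15 with IKKb (limma adjusted p = 0.981) and 0.27 with IkB_SR. A pseudocount of 1 in place of 16 gave 0.56 and 0.57. IKKb and IkB_SR differed by -0.065 ± 0.11 (-0.29 to 0.16; adjusted p = 0.840), an interval that leaves out a difference of 1.5-fold, and by -0.032 without the H358 IKKb array. Both differences from MiG use the same 5 MiG arrays. A second, dimmer TFPI probe set gave 0.58 with IkB_SR and 0.56 with IKKb, each higher than MiG in 5 of 5 lines, while 2 others gave 0.17 and 0.47 with IkB_SR and 0.072 and 0.15 with IKKb. The dimmest gave 0.20 and -0.12. Between IKKb and IkB_SR the brightest probe set gave -0.23 in H358 and the second, dimmer one -0.57. The 2 others gave -1.11 and -1.57 there, and the dimmest 0.14. These H358 values use the IKKb array that stood apart. The TFPI promoter window held neither motif.

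TFPI2, the Kunitz inhibitor related to TFPI, gave the 2 largest single differences of the 7 genes, both in H358. In H358 it read 201 with IkB_SR, 672 with MiG and 7517 with IKKb, so IKKb was 34.7-fold above IkB_SR and 10.95-fold above MiG, and IkB_SR was 3.17-fold below MiG. In HCC827 it read 3834, 4055 and 7957, a log2 difference of 1.05 between IKKb and IkB_SR and 0.97 between IKKb and MiG. The order was the same but narrower in PC9, at 4953, 5344 and 6568. A549 and H23 ran the other way between IKKb and IkB_SR. A549 read 11309, 8767 and 9691, and H23, the highest line, read 29397, 27386.5 and 23097. H358 was thus the lowest line with IkB_SR and MiG, and with IKKb its signal lay between those of PC9 and HCC827.

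Over the 5 lines TFPI2 differed by 1.20 ± 0.55 between IKKb and IkB_SR (95% interval 0.018 to 2.38; limma adjusted p = 0.346; higher in 3 of 5 lines). It differed by 0.92 ± 0.55 between IKKb and MiG (-0.26 to 2.11; adjusted p = 0.899; 4 of 5) and by -0.28 ± 0.55 between IkB_SR and MiG (-1.46 to 0.91; adjusted p = 0.995; lower in 3 of 5). H358 decided the size: without that line the first was 0.22 and the second 0.29, and without its IKKb array alone they were 0.39 and 0.12. The second TFPI2 probe set read 134 with IkB_SR, 348 with MiG and 4256 with IKKb in H358, a log2 difference of 4.83 between IKKb and IkB_SR, and 1.33 ± 0.50 over the lines. The IKKb array of H358 is the one with the higher actin ratio and spike-in signal. The IkB_SR to MiG difference in H358, -1.66, does not use that array.

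The TFPI2 window is shown because it alone held an NF-kB consensus match among the windows searched. Those were the windows of PLAU, PLAUR, SERPINB2, F3, TFPI and TFPI2. PLAT was left out of the search and no window was found for SLPI, so neither can be compared. The TFPI2 match lies 152 to 143 bases before the start and an AP-1 match lies at 87 to 81, both in capitals. The window is chr7:93890754-93891003 on the minus strand (RefSeq, GRCh38.p14).
TFPI2: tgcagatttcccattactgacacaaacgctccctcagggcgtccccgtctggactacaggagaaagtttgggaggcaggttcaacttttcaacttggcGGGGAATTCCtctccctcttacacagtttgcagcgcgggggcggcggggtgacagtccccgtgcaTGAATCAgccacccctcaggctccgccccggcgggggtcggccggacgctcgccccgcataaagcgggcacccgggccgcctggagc
The letters are those of the reference genome, not read from the lines, and what binds there was not measured.

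SLPI, the elastase inhibitor of airway secretions, varied most between vectors in HCC827. There it read 199 with IkB_SR, 425 with MiG and 1721 with IKKb, so IKKb was 8.06-fold above IkB_SR and 3.94-fold above MiG, and IkB_SR was 2.05-fold below MiG. H358 read 215, 193 and 402, and PC9, the highest line, read 7523, 9241 and 11362. In A549 the signals were 2626, 1859 and 2840.1, and in H23, the lowest line, 124, 93.4 and 124. IKKb was above MiG in all 5 lines and above IkB_SR in 4, with H23 level at -0.0034. The log2 difference between IKKb and IkB_SR was 0.91 ± 0.31 (95% interval 0.25 to 1.57; limma adjusted p = 0.202), a 1.88-fold difference. It was 0.85 ± 0.31 between IKKb and MiG (0.19 to 1.51; adjusted p = 0.878) and -0.067 ± 0.31 between IkB_SR and MiG (-0.73 to 0.59; adjusted p = 0.997). Without HCC827 the first was 0.39 and the second 0.56. Between IKKb and IkB_SR, HCC827 also had the largest TNFAIP3 difference of the 5 lines, and H358, where TFPI2 differed most, the next. RELB, another NF-kB target, gave 2.54 (HCC827), 2.43 (H358), 2.33 (A549), 1.86 (PC9) and 1.65 (H23) in that comparison. Whether such differences bear on SLPI or TFPI2 was not tested.

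**Figure D2:**
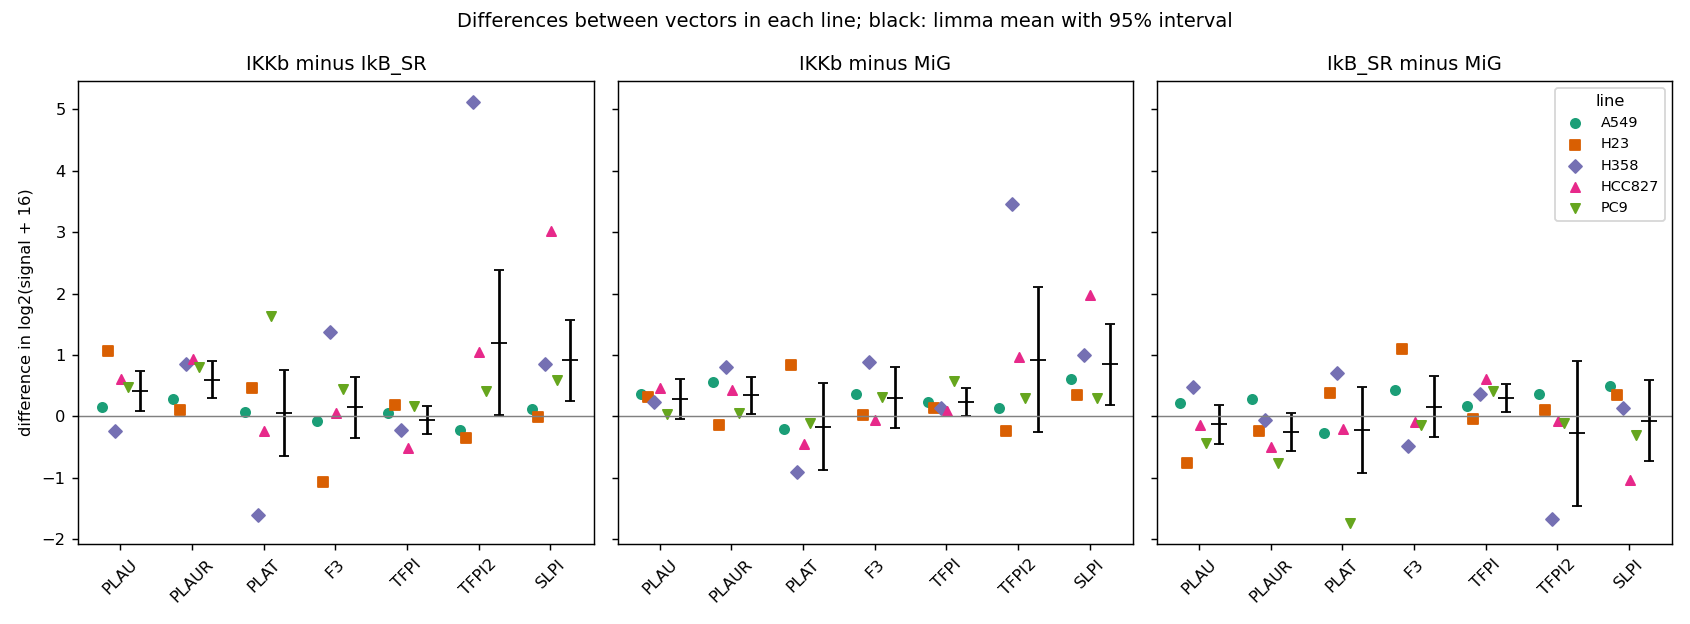
Difference in log2(signal + 16) between vectors for the 7 human members, with 1 coloured point per line (1 array against 1 array) and, in black, the limma mean with its 95% interval. TFPI2 in H358 reaches 5.12 and SLPI in HCC827 3.01 between IKKb and IkB_SR, while the PLAUR points all lie above 0, between 0.10 and 0.93.

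Counted line by line, with 1 array per vector and so no test, the differences past 2-fold fell in different genes in different lines. Between IKKb and IkB_SR there were none of 7 in A549 (3.5% of all genes), 2 in H23 (5.23%; PLAU higher, F3 lower) and 3 in H358 (11.5%; F3 and TFPI2 higher, PLAT lower). HCC827 had 2 (7.99%; TFPI2 and SLPI higher) and PC9 had 1 (5.66%; PLAT higher). Between IKKb and MiG the members past 2-fold were TFPI2 in H358 (6.97% of all genes) and SLPI in HCC827 (6.01%), both higher with IKKb. A549, H23 and PC9 had none, against 2.83%, 3.98% and 4.06% of all genes. Between IkB_SR and MiG they were F3 in H23 (4.97%), which was higher with IkB_SR, and TFPI2 in H358 (3.07%), SLPI in HCC827 (5.23%) and PLAT in PC9 (4.48%), which were lower. A549 again had none (3.29%). In the 2 comparisons with MiG no member passed 2-fold in the same direction in more than 1 line. Between IKKb and MiG this rested on narrow margins. SLPI in H358 was 1.998-fold higher with IKKb when the pseudocount was added, and 2.08-fold higher by its printed signals. TFPI2 in HCC827 was 1.96-fold higher with IKKb. Between IKKb and IkB_SR, TFPI2 was past 2-fold and higher with IKKb in both H358 and HCC827.

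**Figure D3:**
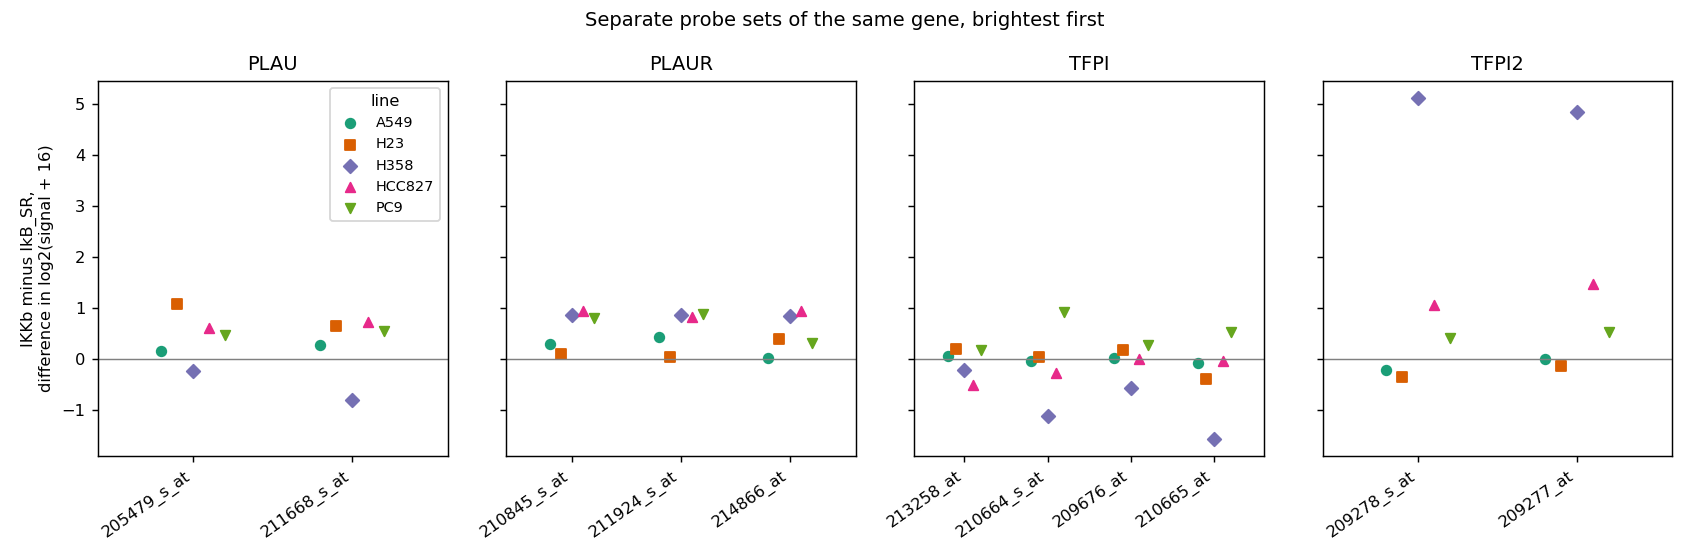
Difference in log2(signal + 16) between IKKb and IkB_SR for the separate probe sets of the 4 genes with more than 1, with 1 point per line and the brightest probe set first; the dimmest TFPI probe set is not drawn. Both TFPI2 probe sets put H358 near 5 (5.12 and 4.83) and all 3 PLAUR probe sets have every line above 0. On every TFPI probe set drawn H358 (-0.23 to -1.57) and HCC827 lie below 0. PC9, where TFPI was below background, lies above 0 on each, and A549 and H23 lie on both sides.

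The genes most like each member over the 15 human arrays are given by Pearson r, as a description; the arrays share 5 lines, so levels mostly reflect the lines. On log2 levels they were TRIM55 (r = 0.964) and SP110 (0.962) for PLAU, IDH3B (0.922) and SETD9 (0.918) for PLAUR, and ANKRD22 (0.981) and CLDN4 (0.975) for PLAT. For F3 they were TBCCD1 (0.983) and CNN3 (0.982), for TFPI PARP2 (0.985) and SRPX (0.985), for TFPI2 SLC4A2 (0.954) and MCM10 (0.936), and for SLPI TMEM143 (0.955) and LRRC8D (0.951). After each gene was centred within its line, which leaves the differences between vectors, they were ARL14 (0.950) and the chemokine CXCL3 (0.930) for PLAUR, KIF1C (0.947) and PTPRM (0.926) for PLAU, and MAMDC2 (0.955) and MVP (0.897) for PLAT. For F3 they were PALLD (0.940) and ADGRL3 (0.926), for TFPI LINC02875 (0.848) and CAST (0.841), for TFPI2 PPP2CA (0.982) and POLR3C (0.978), and for SLPI NCOA7 (0.959) and KYNU (0.956). Among the members themselves, centred values ran together most for PLAUR and SLPI (r = 0.77), F3 and TFPI2 (0.74) and PLAUR and TFPI2 (0.66), and most against each other for PLAT and TFPI2 (-0.59), each over 15 arrays. Without the H358 IKKb array, a setting chosen after seeing the data, these were 0.76, 0.46, 0.45 and -0.28 over 14 arrays. The same setting gave 0.904 for PPP2CA and 0.882 for POLR3C with TFPI2, and 0.897 for PALLD and 0.876 for ADGRL3 with F3.

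The wider plasminogen system, a list of 20 partners that were no members, had 16 genes past the filter. None passed against MiG with either vector (median differences 0.041 and 0.049). Between IKKb and IkB_SR 2 rose and none fell, with a median of -0.042. Of all genes 0.611% rose and 0.322% fell there. The list was chosen with earlier results of these data known. Both genes that rose were integrin chains. ITGAV, the alpha V chain that binds vitronectin, was higher with IKKb in 5 of 5 lines by 0.62 ± 0.10, a 1.54-fold difference (limma adjusted p = 0.00881). ITGA5, the alpha 5 chain of the fibronectin receptor, was higher in 5 of 5 by 0.69 ± 0.14, or 1.62-fold (adjusted p = 0.0328). ITGAV read 4242, 5681, 5948, 3645 and 2637 with IkB_SR in A549, H23, H358, HCC827 and PC9, and 5949, 9676, 10543, 4391 and 4499.8 with IKKb, the MiG array lying between them in all 5 lines. ITGA5 read 327, 527, 153, 348 and 366 with IkB_SR and 391, 768, 333, 588 and 707 with IKKb. Both calls were lost under other settings. Without PC9 the adjusted p was 0.0642 for ITGAV and 0.173 for ITGA5, and without H23 0.0517 and 0.0980. Leaving out H358 or HCC827 ended the ITGA5 call alone, at 0.0654 and 0.151, as did leaving out the H358 IKKb array (0.0628). A fit on the compared arrays only gave 0.119 for ITGAV and 0.231 for ITGA5, and one without the intensity trend 0.0686 and 0.0910. Against MiG, ITGAV gave 0.30 ± 0.096 with IKKb (higher in 5 of 5 lines; adjusted p = 0.878) and -0.32 ± 0.096 with IkB_SR (lower in 5 of 5; 0.995). ITGA5 gave 0.28 ± 0.14 and -0.41 ± 0.14 in the same comparisons, with the same limma adjusted p. ITGB5, which pairs with the alpha V chain, was lower with IKKb than with IkB_SR in 5 of 5 lines. The difference was -0.56 ± 0.14 and missed the threshold (limma adjusted p = 0.0764).

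Of 22 coagulation factors and protease-activated receptors 15 were tested, and none passed in any human comparison (median differences 0.015 between IKKb and MiG, 0.11 between IkB_SR and MiG and -0.080 between IKKb and IkB_SR). The smallest p between IKKb and IkB_SR belonged to PROCR, the endothelial protein C receptor, at -0.61 ± 0.19 (limma adjusted p = 0.169). Next was GGCX, the vitamin K-dependent carboxylase, at -0.27 ± 0.11 (adjusted p = 0.306). The same pair led between IKKb and MiG, with PROCR at -0.40 ± 0.19 and GGCX at -0.25 ± 0.11 (both 0.878). Between IkB_SR and MiG the leading pair was F7, the ligand of tissue factor, at -0.53 ± 0.32, and the thrombin receptor family gene F2RL2 at 0.37 ± 0.24 (limma adjusted p = 0.995 for both); F2RL2 lay below the 40th percentile on 10 of 15 arrays. Of 19 epithelial protease inhibitors, the class of SLPI, 14 were tested. None passed against MiG (medians 0.14 with IKKb and -0.073 with IkB_SR). Between IKKb and IkB_SR the median was 0.22, and 1 rose and none fell (0.611% and 0.322% of all genes). It was SERPINB8, an intracellular serpin that inhibits furin, at 0.73 ± 0.16, 1.66-fold and higher in 5 of 5 lines (limma adjusted p = 0.0435). Its signals were 238, 125, 142, 141 and 294 with IkB_SR and 283, 257, 277, 301 and 445 with IKKb, in A549, H23, H358, HCC827 and PC9. With the mean of its probe sets in place of the brightest one the difference was 0.44 (adjusted p = 0.150), and without H23, H358, HCC827 or PC9 in turn the adjusted p was 0.151, 0.121, 0.180 or 0.153; in all 11 of 17 alternatives ended the call. PI3, the elafin gene, gave 0.66 ± 0.29 (adjusted p = 0.337) and was higher in 4 of 5 lines. Against MiG, SERPINB8 gave 0.49 ± 0.16 with IKKb (0.878) and -0.24 ± 0.16 with IkB_SR (limma adjusted p = 0.995); SERPINB3 gave 0.58 ± 0.28 with IKKb and SERPINA3 -0.29 ± 0.26 with IkB_SR, where 5 and 9 of the 15 arrays lay below the 40th percentile. By comparison, 5 of 6 reference NF-kB targets passed between IKKb and IkB_SR, where 0.933% of all genes did. The median over the 6 was 1.93. The exception was NFKBIA (-0.70), the gene that the IkB_SR vector carries. None of the 6 passed against MiG with either vector.

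In LLC, Slpi and Plat stood apart between the vectors in opposite directions, and both calls depended on the replicate number. Slpi read 151 and 139.6 with MiG and 509 and 279 with IKKb, so the groups did not overlap. The difference was 1.29 ± 0.33 (95% interval 0.51 to 2.07), a 2.44-fold difference, which was 3.15-fold between arrays numbered 1 and 1.89-fold between arrays numbered 2. Plat read 991 and 853 with MiG and 504 and 579 with IKKb, again without overlap, a difference of -0.75 ± 0.20 (-1.22 to -0.28), or 1.68-fold lower. Without a block neither passed (limma adjusted p = 0.9997 for both, unadjusted 0.00613 and 0.00752). In that fit 0 of the 7 members past the filter and 0% of 12549 genes passed the threshold. Serpinb2 is among these 7 and is set apart below, because it passed the filter through its IKKb arrays only. There 238 genes (1.9%) had an unadjusted p below 0.05, and 1337 (10.7%) with the block described next. With the replicate number as a block, a replicate block, both passed (limma adjusted p = 0.000153 for Slpi and 0.000257 for Plat), 2 of 7 members where 1.78% of genes passed (1.24% higher, 0.542% lower). With 4 arrays that fit leaves little of each gene's own spread to measure. Its p-values therefore rest largely on the variance that limma shares across genes. What the array numbers stand for is not given in the labels. The Dap spike-in split the arrays by them, with 1679 and 1567 on the arrays numbered 1 and 28.7 and 19.4 on those numbered 2. A second Plat probe set was below background on 3 of the 4 arrays and ran the other way, so that the mean of both gave 0.072.

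Plaur, the receptor, read 886 and 1392 with MiG and 1432 and 1460.5 with IKKb. The groups did not overlap, but the fold was 1.61 between arrays numbered 1 and 1.05 between arrays numbered 2, and the difference was 0.38 ± 0.24 (-0.21 to 0.96; limma adjusted p = 0.9997, and 0.125 with the block). Serpinb2, the plasminogen activator inhibitor that had no human value here, read 10.2 and 32.5 with MiG, both below the 40th percentile of their arrays, and 47.8 and 53.4 with IKKb, both above it. With the percentile of each MiG array in its place the fold was at least 1.28. It passed the filter through its IKKb arrays only, so its groups had to differ, and no test is given for it. Of the other 6 members tested 3 did not overlap, Plaur and Slpi higher and Plat lower with IKKb, where 22.1% of all genes did not (10.9% higher and 11.2% lower).

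The other LLC members overlapped between the vectors. Plau read 279 and 561 with MiG and 286 and 424 with IKKb, a difference of -0.18 ± 0.37 (-1.06 to 0.70). F3 read 320.4 and 471 against 389 and 349, a difference of -0.073 ± 0.26 (-0.69 to 0.54). Tfpi read 2835 and 3911 against 2752 and 3829, a difference of -0.036 ± 0.25 (-0.63 to 0.56), in which the array numbers differed by more than the vectors did. Tfpi2 lay below the 40th percentile on all 4 arrays, with signals from 0.893 to 24.4, and was not tested. So the gene with the widest human differences was not above background in the mouse cells.

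**Figure D4:**
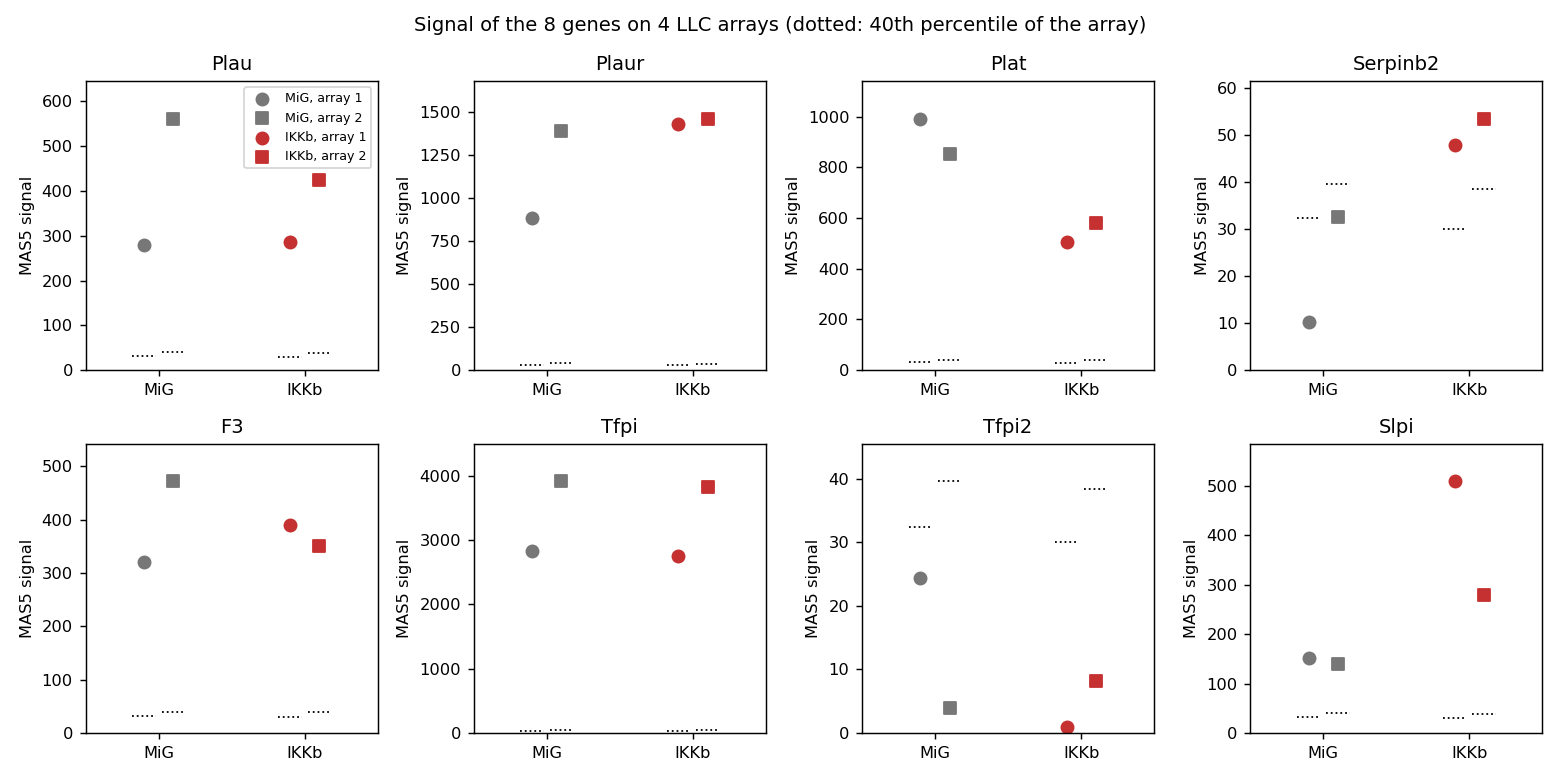
MAS5 signal of the 8 mouse genes on the 4 LLC arrays (linear axes from 0), by vector, with circles for arrays numbered 1, squares for arrays numbered 2 and dotted lines at the 40th percentile of each array. Slpi and Plaur lie higher and Plat lower with IKKb without overlap, Serpinb2 lies above its dotted lines with IKKb only, and all 4 Tfpi2 points lie below their dotted lines.

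Markers of other cell types in LLC are given beside these values. The summed signal of 6 epithelial markers was 12122 to 14526 with MiG and 9439.8 to 9893 with IKKb, without overlap. Of these, 4 to 5 lay above background with MiG and 2 to 3 with IKKb. The sum of the 4 leukocyte markers named was 693 to 701 with MiG and 622 to 709 with IKKb. Ptprc was below background on all arrays and Cd3e above it on 1. Cd14 and Cd68 lay above it on all, at 503 to 566 and 87.6 to 146. The fibroblast sum was 10852 to 20339 with MiG and 10218 to 11487 with IKKb, nearly all of it Col3a1. Of the endothelial markers, Pecam1, Vwf and Tek were below background throughout. Cdh5 lay above it on 1 array (at most 34.5) and Kdr on all 4 (46.6 to 100). The part of these in the Slpi and Plat differences was not tested. Of the plasminogen partners, 11 were tested in LLC and none passed without the block. With it Mrc2, an endocytic collagen receptor that associates with the urokinase receptor, fell, as 0.542% of all genes did. Its log2 difference was -0.71 (SE 0.17, limma adjusted p = 0.0175). None of 13 coagulation genes and none of 7 epithelial inhibitors passed in either fit. In the first list the leading values were -0.45 for the thrombomodulin gene Thbd and -0.55 for F8. In the second they were -0.64 for Serpinb5 and 0.54 for Spint2. F8 and Serpinb5 each lay below the 40th percentile on 2 of the 4 arrays, and Spint2 on 1.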

How the data were processed

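The authors deposited a linear intensity for each probe set, made with GCOS 1.4 and MAS5, per the submitters' processing notes; the genome build behind the probe annotation is not given in the sources used here. The values show a 2 percent trimmed mean of 500 on every array, so differences in total RNA are lost, and signals near background are noisy. Of 54675 human probe sets 41097 name 1 gene, 1801 several and 11777 none; of 45101 mouse probe sets the numbers are 34958, 932 and 9211. Only those naming 1 gene were used, with names from the platform annotation, which can be old.

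Here log2(signal + 16) was tested with limma 3.58.1 (lmFit, eBayes with trend, two-sided) in R 4.3.3, after keeping genes above the 40th percentile on at least 5 human or 2 mouse arrays (15212 and 12549 genes). The probe set with the highest mean log2 signal stood for a gene. The human fit used 15 arrays and blocked on the cell line, which pairs the arrays because the labels give every line once per vector. The LLC fit had no block. Adjustment was Benjamini-Hochberg over all genes, and the threshold was 0.05. The correlation of same-numbered LLC deviations was 0.53, a single value with 2 arrays per vector. Members and gene lists were chosen with earlier results of these data known. Named genes were the members, list genes past the threshold or, failing those, the 2 smallest p per list, and the 2 genes of highest r to each member. ITGB5, PI3, TNFAIP3, TNFAIP2, RELB, ICAM1, NFKB2, NFKBIA and the checks of single arrays were named after their values were seen. The scripts were tested on simulated data. Alternatives tried included a pseudocount of 1 or 64, quantile or median scaling, 2 other filters, averaged or other probe sets, eBayes without trend or robust, no block, the compared arrays alone, and leaving out each line, LLC array or the H358 IKKb array. Promoters are 250 bases before RefSeq starts (GRCh38.p14). Figures used matplotlib 3.10.9 in Python 3.11.15. Interval width is limited by the number of arrays.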

Additional observations from a re-analysis of the deposited data

Results flagged for a closer look

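A total of 6 values lay far from the other 4 lines of their group of 5, out of 42 groups examined; chance puts about 1 in 20 groups past this limit, and lines are different cells, not repeats. For TFPI, PC9 was far below the other lines with each vector, at a log2 signal of 4.53 with IkB_SR, 4.12 with MiG and 4.70 with IKKb, where the next lowest lines stood at 11.4, 10.8 and 10.9. For TFPI2, the H358 difference between IkB_SR and MiG was -1.66, where the next lowest line gave -0.11. The H358 difference between IKKb and IkB_SR for TFPI2 was 5.12, where the next highest line gave 1.05. For SLPI, the HCC827 difference between IKKb and IkB_SR was 3.01, where the next highest line gave 0.85.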

How the results depend on the processing

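No human member passed the threshold under any of the 17 alternatives to each comparison, and all 7 differed between lines under each alternative tried. In LLC the replicate block took the members past the threshold from 0 to 2 and all genes from 0 to 223. Of 531 alternatives for single genes, 484 kept direction and call, 21 reversed, 24 lost a call (all for ITGA5, ITGAV or SERPINB8) and 2 gained one (Slpi and Plat under the replicate block). Leaving out the cell line as replicate block left no human gene past the threshold (adjusted p = 0.99996 for those 3 genes).

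Directions turned for members with small differences when 1 line or array was left out. Between IKKb and IkB_SR the ranges were -0.16 to 0.45 for F3, -0.33 to 0.48 for PLAT (-0.037 without H23) and -0.13 to 0.048 for TFPI. Between IKKb and MiG the range for PLAT was -0.42 to 0.020. Between IkB_SR and MiG they were -0.071 to 0.32 for F3, -0.46 to 0.15 for PLAT, -0.28 to 0.028 for PLAU, -0.21 to 0.17 for SLPI and -0.44 to 0.070 for TFPI2. In LLC they were -0.34 to 0.19 for F3 (0.000704 without the second IKKb array), -0.66 to 0.31 for Plau (0.094 without the first IKKb array) and -0.27 to 0.20 for Tfpi (0.19 without the second MiG array). Without the H358 IKKb array F3 gave -0.081 between IKKb and IkB_SR and PLAT 0.14 between IKKb and MiG. The dimmest TFPI probe set gave -0.12 between IKKb and MiG, another Tfpi probe set in LLC 0.059, and the mean of the Plat probe sets 0.072.

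Between IKKb and IkB_SR 142 genes passed in all; this was 86 without a filter, 45 with averaged probe sets, 21 without trend, 15 with the compared arrays only, and 24 to 130 with a line left out. With a line left out, 0 to 8 genes passed between IkB_SR and MiG, and 1 with the compared arrays only; averaged probe sets gave 1 between IKKb and MiG. In LLC a pseudocount of 64 gave 2 genes and leaving out an array 3 to 140, a fit in which the lone array is assumed to vary like the other vector's. The cause of these changes was not tested.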
